A study of Mus musculus with 4 samples.

Results

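The proteases that cut extracellular matrix and the inhibitors that hold them in check were examined in lung endothelial cells (ECs) of mice after unilateral pneumonectomy (PNX). The genes were taken by symbol, as every gene named Mmp, Adamts, Adamtsl or Timp followed by digits and at most 1 letter. This gave 51 of the 24063 gene symbols in the count tables: 23 matrix metalloproteinase (MMP) genes, 19 ADAMTS genes, 5 ADAMTS-like (ADAMTSL) genes and 4 genes for tissue inhibitors of metalloproteinases (TIMPs). For every gene, the values are those of the transcript on which most reads were counted.

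The sham group (2 libraries) came from C57BL6J mice with the chest opened and the lung left in place. The labels give no day after surgery for this group. The PNX group (2 libraries) came from mice of the same strain, 7 days after removal of the left lung. All mice were labelled male and 8 weeks old, and the labels name no transgene or mutant allele. Each library held RNA from the lung cells of 2 mice, bound by magnetic beads that carry an antibody to CD31, the surface protein of ECs encoded by Pecam1. The study's methods thus describe the replicates as separate pools of animals. The spread between the 2 libraries of a group is the error behind every value below.

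Counts per library, with 1 transcript per gene, summed to between 41367438 and 50952879. None of the 44 genes of chromosome Y was counted in any of the 4 libraries (0 counts each), while Xist, which is transcribed from the inactive X chromosome, had between 29890 and 36875 counts per library. The libraries of both groups therefore go against the label male in the same way, and no subset without this feature exists to compare. The endothelial genes Pecam1 and Cdh5 had between 81320 and 121244 counts in every library. Sftpc, the surfactant gene of alveolar type 2 cells, also had 171276 and 170761 normalized counts in sham and 111406 and 110654 in PNX, so that RNA of other cells was present too. In such bulk RNA a change in how many cells of a type are present cannot be told apart from a change in RNA per cell.

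MMPs are zinc-dependent enzymes, made as inactive precursors, that cut collagens, elastin, basement membrane and many cell surface proteins. ADAMTS enzymes are relatives with thrombospondin repeats that trim procollagens, cleave proteoglycans such as versican, or act on fibrillin microfibrils and von Willebrand factor. ADAMTSL proteins share the repeats of ADAMTS enzymes but lack the catalytic domain. TIMPs bind the active site of MMPs, and TIMP3 also inhibits several ADAM and ADAMTS enzymes. In the lung these genes are known for matrix turnover during growth, repair and emphysema, and ECs, fibroblasts, mesothelial cells and leukocytes each express some of them.

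Of the 51 genes, 45 had enough counts to be tested. Of those, 20 were higher in the PNX libraries by edgeR's quasi-likelihood F test, with an adjusted p (Benjamini-Hochberg) under 0.01 and a log2 fold change over 1, and 0 were lower by that rule. Among all 16208 genes tested, 5.9% were higher and 1.66% were lower by the same rule. At an adjusted p under 0.01 with a change of any size, 28 of the 45 were higher and 13 did not pass. The other 4, Mmp28, Adamtsl4, Adamts10 and Mmp11, were lower, although with scaling to endothelial markers Mmp28 alone passed and Adamts10 and Mmp11 came to lie just above 0. The same scaling raised the count of higher genes from 28 to 36, adding Adamts6, Adamts8, Adamts15, Adamtsl5, Mmp3, Mmp15, Mmp16 and Mmp24. Without that scaling, 29.3% of all genes tested were higher and 27.8% were lower at any size. The shares over all genes with that scaling are not given here, so the 36 has no matching background. The 45 genes had a median log2 fold change of 0.56, and all genes tested had one of 0.00.

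The families were unequal. Of the 18 MMP genes tested, 9 were higher past both thresholds, as were 9 of the 18 tested ADAMTS genes. Only 1 of 5 ADAMTSL genes and 1 of 4 TIMP genes were. The median log2 fold changes were 0.87 for MMP genes, 0.79 for ADAMTS genes, 0.38 for ADAMTSL genes and 0.13 for TIMP genes. The differences between families were not tested. In 41 of the 45 genes the 2 groups did not overlap, with both directions counted. Among all 16208 genes tested, 6606 (40.8%) were higher and 6560 (40.5%) were lower without overlap. These 2 shares are to be added for the comparison, so lack of overlap was the usual case among all genes. The 4 genes with overlap were Adamts13, Mmp24, Mmp3 and Timp4.

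**Figure D1:**
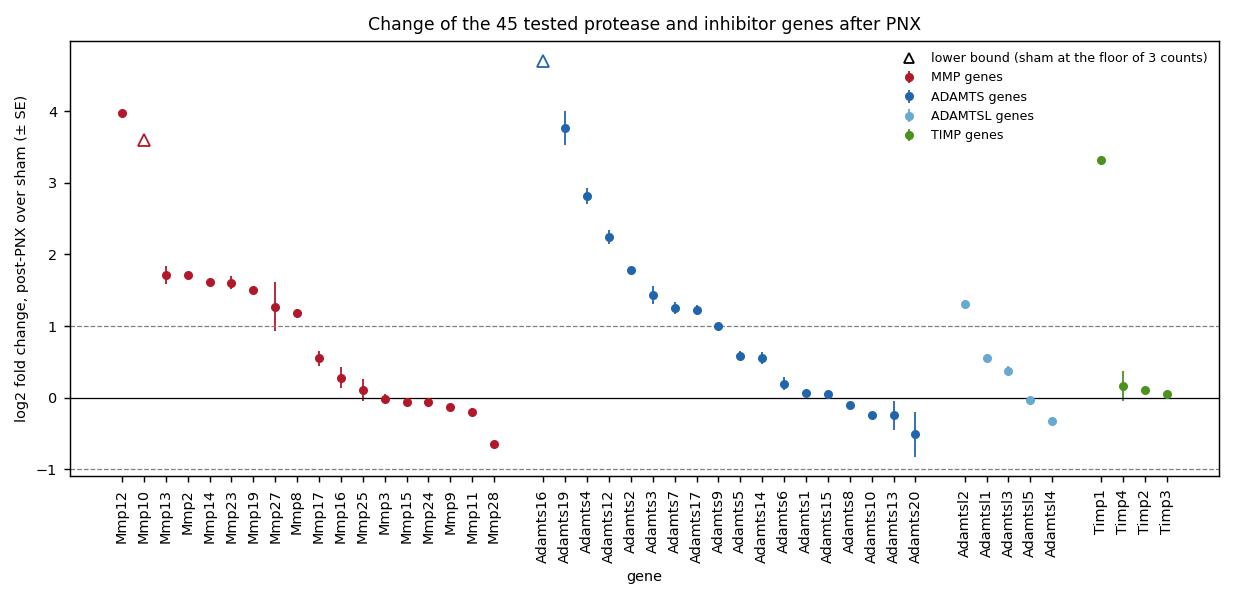
The log2 fold change of PNX over sham (y axis) is plotted for each of the 45 tested genes (x axis), coloured by family, with bars of 1 standard error, dashed lines at the fold threshold of 1 in either direction, and open triangles for lower bounds against a floor of 3 counts. The triangles are Adamts16 (at least 26.1-fold higher) and Mmp10 (at least 12.2-fold higher). Among the other genes, Mmp12 at 3.98, Adamts19 at 3.77 and Timp1 at 3.32 stand highest, and Mmp28 at -0.64 is the lowest.

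The libraries agreed closely. The median standard deviation of log2 normalized counts within groups was 0.032 over the tested members and 0.036 over all genes tested. Adamts10, for example, had 11661 and 11659 normalized counts in PNX. Whether separate pools of mice would agree this closely was not tested. Nor was it tested how much of the variation between animals this small spread holds. The adjusted p values rest on it and may be too small for animals at large. Members held 0.366% and 0.368% of all counts in sham and 0.460% and 0.461% in PNX. Where fold changes were scaled instead to 12 endothelial marker genes, the median of all genes tested moved by 0.24, the calls among all genes went from 957 higher and 269 lower (78.1% higher) to 1289 higher and 90 lower (93.5% higher), and the members again gave 20 higher and 0 lower. Normalized counts below are counts brought to a common library size with TMM factors, and folds between genes are never read from them. Levels of different genes are compared only as FPKM, the authors' counts per transcript length and library total.

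Of the 23 MMP genes, 10 lie side by side on chromosome 9, between positions 7272514 and 7699585 of mm10, a stretch of 427 kb. In order along the chromosome they are Mmp13, Mmp12, Mmp1b, Mmp3, Mmp1a, Mmp10, Mmp8, Mmp27, Mmp20 and Mmp7. They encode collagenases, stromelysins, the macrophage elastase, the matrilysin and the tooth enamel protease. Within this cluster 6 genes were tested and 5 were higher past both thresholds, against 5.9% of all genes tested.

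The promoters of this cluster are shown because a motif that binds AP-1, the factor of Fos and Jun proteins known to drive several MMP genes, falls in many of them. The letters TGAGTCA were searched on both strands in the 250 bases upstream of each RefSeq start site (build GRCm38.p6). Windows were found for 36 of the 51 genes, 39 windows in all. The motif was present in 7 of the 39 windows, or 17.95%, against 4.46% of the 32851 windows of all genes. The 7 genes were Mmp10, Mmp12, Mmp13, Mmp1a, Mmp1b, Mmp3 and Mmp7, all in the chromosome 9 cluster. The Mmp1a and Mmp1b windows were near copies of each other around the motif. The 7 matches are thus not all separate instances, and 17.95% is not a rate over unrelated genes. The 100 bases upstream of the start site are printed 5′ to 3′ for 6 of them, with the motif or its reverse complement in capitals. All 6 read along the plus strand.
Mmp13, chr9:7272414-7272513: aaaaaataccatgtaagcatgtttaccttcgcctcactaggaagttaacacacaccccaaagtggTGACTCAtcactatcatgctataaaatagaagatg
Mmp12, chr9:7347274-7347373: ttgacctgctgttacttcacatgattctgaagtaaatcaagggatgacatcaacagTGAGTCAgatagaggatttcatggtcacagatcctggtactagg
Mmp10, chr9:7502242-7502341: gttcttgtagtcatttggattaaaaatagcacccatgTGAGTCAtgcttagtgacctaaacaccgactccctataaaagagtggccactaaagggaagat
Mmp3, chr9:7445722-7445821: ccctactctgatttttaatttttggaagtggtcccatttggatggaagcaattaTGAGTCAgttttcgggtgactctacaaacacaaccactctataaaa
Mmp1a, chr9:7464041-7464140: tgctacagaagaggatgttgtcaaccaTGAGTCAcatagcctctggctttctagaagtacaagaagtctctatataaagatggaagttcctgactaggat
Mmp7, chr9:7691990-7692089: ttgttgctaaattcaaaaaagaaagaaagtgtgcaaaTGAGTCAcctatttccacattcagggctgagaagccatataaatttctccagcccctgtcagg
The first base of the motif stood between 35 and 73 bases before the start site in these 6 windows. The Mmp12 window belongs to the second of its RefSeq start sites, and the window upstream of the other start site, at 7344397, did not hold these letters. Which of these start sites the counted Mmp12 transcript uses was not determined. Having the motif did not separate genes that were higher from those that were not. Mmp13, Mmp12 and Mmp10 were higher, Mmp3 did not pass the test, and Mmp1a and Mmp7 had no counts. Mmp8 and Mmp27 were higher with no match in their windows, which says only that these letters are not in those bases.

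The TEAD motif, the letters GGAATG searched on both strands because TEAD factors are the DNA-binding partners of YAP1, the factor the study is about, was present in 2 of the 39 windows, or 5.13%, against 12.64% of all windows. The 2 genes were Timp1 and Adamts13. The letters TATAAA on the gene's strand were present in 10 windows, or 25.64%, against 7.59% of all windows. These 10 were Adamts1, Adamtsl2, Mmp10, Mmp13, Mmp1a, Mmp1b, Mmp20, Mmp21, Mmp3 and Mmp7, most of them in the same cluster. Motif matches describe the letters and are not evidence of binding in these cells.

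Collagenases cut fibrillar collagen, and in the mouse Mmp13 is the main collagenase of stromal cells and Mmp8 is the enzyme stored in neutrophil granules. Mmp13 had 75.2 and 93.8 normalized counts in sham and 289 and 263 in PNX. Its log2 fold change was 1.72 (SE 0.127, edgeR adjusted p = 1.2e-18). Both PNX libraries stood well above both sham libraries. Mmp8 had 468 and 475 normalized counts in sham and 1021 and 1125 in PNX, a log2 fold change of 1.18 (SE 0.061, edgeR adjusted p = 6.1e-26), again with no overlap. The Mmp8 call was lost when a fold over 2 was tested directly with glmTreat. The other mouse collagenase genes were at the bottom of the range: Mmp1a had 0 counts in every library, which at this depth allows up to 0.0590 to 0.0725 CPM, and Mmp1b had 1, 0, 6 and 2 counts and was not tested.

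Mmp12, the macrophage elastase, which cuts elastin and many other matrix proteins, had the largest fitted change of the members that were above the floor of 3 counts in sham. It had 314 and 323 normalized counts in sham and 5093 and 4943 in PNX. The PNX libraries were 15.8-fold higher, with a log2 fold change of 3.98 (SE 0.045, edgeR adjusted p = 1.0e-60), and the groups were far apart. On the FPKM scale it went from 1.20 to 19.0 and from rank 25 to rank 10 of the members. Mmp7, the matrilysin of epithelia, had 0 counts in every library. Mmp12 and Mmp1b overlap on opposite strands by 157 exon bases, 10.8% of those of Mmp1b, so that the few Mmp1b counts are uncertain.

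The stromelysins, which cut proteoglycans and can activate other MMPs, did not move as a group. Mmp10 had 2 and 1 counts in sham and 34 and 33 in PNX, at least 12.2-fold higher when the sham group is set at the floor of 3 counts per library (edgeR adjusted p = 4.8e-11). Mmp3 had 644 and 654 normalized counts in sham and 649 and 638 in PNX, so the libraries interleaved, and its log2 fold change was -0.01 (SE 0.062, edgeR adjusted p = 0.878), but 0.23 with scaling to endothelial markers, where it passed (adjusted p = 0.00147). Mmp11, which has little activity on matrix proteins, had 1128 and 1082 normalized counts in sham and 948 and 982 in PNX. It was lower by a log2 fold change of -0.20 (SE 0.050, edgeR adjusted p = 0.000478), a direction that turned to 0.04 with scaling to endothelial markers, and the change did not pass with DESeq2's Wald test (adjusted p = 0.0378). Its exons overlap the opposite-strand gene Chchd10 by 155 bases, and Chchd10 was itself lower, at -0.68.

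**Figure D2:**
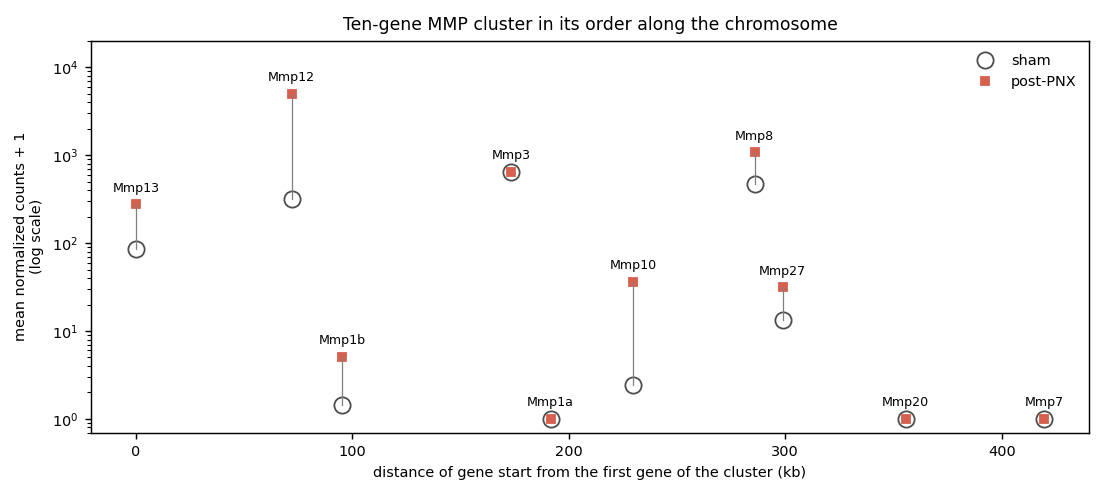
Mean normalized counts plus 1 on a log axis (y) are drawn for the 10 MMP genes of the chromosome 9 cluster against the distance in kb of each start from that of the first gene (x), with open circles for sham, filled squares for PNX and a line joining them. Mmp12 rose from 319 to 5018, Mmp3 had 649 and 644, and Mmp1a, Mmp20 and Mmp7 had no counts.

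Gelatinases digest denatured collagen and the type IV collagen of basement membrane. Mmp2, made mostly by stromal cells, had 3597 and 3884 normalized counts in sham and 12172 and 12326 in PNX. Both PNX libraries stood far above both sham libraries, with a log2 fold change of 1.71 (SE 0.026, edgeR adjusted p = 3.9e-54). Mmp9, known from neutrophils and macrophages, had 1113 and 1095 in sham and 994 and 1018 in PNX. Its log2 fold change of -0.14 (SE 0.049) did not pass at an adjusted p of 0.014 by edgeR's test, and was 0.11 with scaling to endothelial markers. The 2 gelatinases thus had unlike values in the same libraries.

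Membrane-type MMPs sit on the cell surface. Mmp14, a collagenase that activates the product of Mmp2 with TIMP2 as a bridge, had 3207 and 3208 normalized counts in sham and 9829 and 9928 in PNX, a 3.08-fold rise and a log2 fold change of 1.62 (SE 0.026, edgeR adjusted p = 4.0e-53). Its PNX libraries were both far above its nearly equal sham libraries. Mmp15, another transmembrane member, had 5923 and 6152 in sham and 5703 and 5860 in PNX, and did not pass (log2 fold change -0.06, edgeR adjusted p = 0.0294). Under scaling to endothelial markers this value was 0.18. Mmp17, tethered by a lipid anchor, was higher by a smaller amount, 0.55 (edgeR adjusted p = 9.7e-06), from 170 and 173 normalized counts to 258 and 244. Mmp16, Mmp24 and Mmp25 had log2 fold changes of 0.28, -0.06 and 0.11 and did not pass, although with that scaling Mmp16 (0.52, adjusted p = 0.00273) and Mmp24 (0.18, adjusted p = 0.00939) did by edgeR's test. Mmp24 shares 637 exon bases, 13.6% of its own, with the opposite-strand gene BC029722, which had 5757 counts over the 4 libraries. On the FPKM scale Mmp15 was slightly above Mmp14 in sham (19.2 and 16.8), and Mmp14 was above Mmp15 in PNX (52.0 and 18.5).

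Of the remaining MMPs, Mmp19, a basement membrane protease known from vessels and macrophages, had 2523 and 2524 normalized counts in sham and 7009 and 7305 in PNX. It was higher by a log2 fold change of 1.50 (SE 0.029, edgeR adjusted p = 1.4e-48). Mmp19 shares 789 exon bases, 22.3% of its own, with the opposite-strand gene Tmem198b, which was higher too (1510 and 1463 in sham, 2905 and 3074 in PNX). The library kit marks strand, but the strand setting of the counting is not given in the sources used here. Mmp23, an MMP with an unusual domain order, had 201 and 168 in sham and 570 and 562 in PNX, a log2 fold change of 1.61 (SE 0.088, edgeR adjusted p = 1.3e-24) with wide separation. Mmp27 was scarce, at 14.5 and 10.2 in sham against 28.5 and 32.3 in PNX. Its log2 fold change of 1.27 (SE 0.341, edgeR adjusted p = 0.000907) passed, but DESeq2's Wald test gave an adjusted p of 0.0578 and it was lost without sham replicate 2 or PNX replicate 2 (0.0224 and 0.0230).

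Mmp28, or epilysin, of epithelia and other cells, moved the other way. It had 3112 and 3314 normalized counts in sham and 2058 and 2051 in PNX, lower in both libraries by a log2 fold change of -0.64 (SE 0.035, edgeR adjusted p = 6.9e-25), and -0.40 under scaling to endothelial markers. It did not reach the fold threshold. Mmp28 shares 466 exon bases with the opposite-strand gene 1700020L24Rik, which had a log2 fold change of -0.50. Mmp20, the enamel protease, had no counts, and Mmp21, a gene of left-right patterning, had 2, 1, 1 and 1 counts and was not tested.

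**Figure D3:**
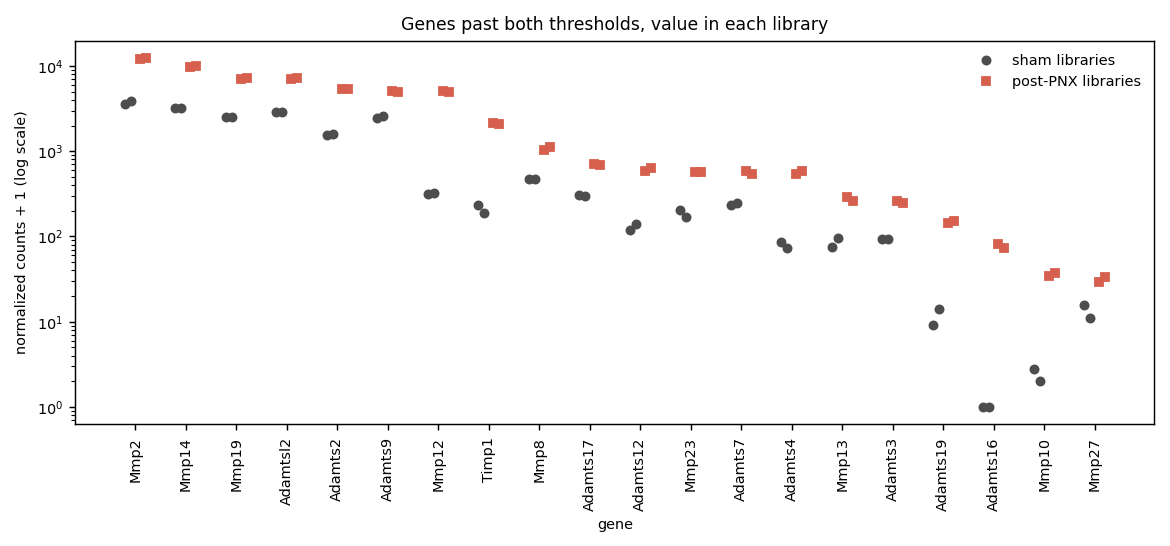
Normalized counts plus 1 in each library on a log axis (y) are shown for the 20 genes past both thresholds (x), with 2 circles for sham and 2 squares for PNX per gene, in order of the PNX level. The squares lie above the circles for each of the 20, by a wide gap for Mmp12 (314 and 323 against 5093 and 4943) and by a narrow one for Adamts9 (2470 and 2567 against 5125 and 4965).

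Procollagen N-proteinases remove the amino-terminal propeptide that keeps procollagen soluble, and all 3 were higher. Adamts2, the main enzyme for procollagens I and III, had 1548 and 1604 normalized counts in sham and 5393 and 5397 in PNX. The log2 fold change was 1.78 (SE 0.032, edgeR adjusted p = 1.0e-49), and the PNX libraries were almost identical. Adamts3, which also activates the lymphatic growth factor VEGF-C, had 93.3 and 92.8 in sham and 257 and 244 in PNX, a log2 fold change of 1.43 (SE 0.124, edgeR adjusted p = 8.5e-16). Adamts14 had 296 and 302 in sham and 451 and 427 in PNX, and its change of 0.56 (edgeR adjusted p = 2.5e-08) was below the fold threshold.

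ADAMTS enzymes that cleave versican, aggrecan and related proteoglycans were mixed. Adamts4, an aggrecanase induced in inflamed tissue, had 85.2 and 72.4 normalized counts in sham and 536 and 583 in PNX, a log2 fold change of 2.82 (SE 0.107, edgeR adjusted p = 1.5e-32). Adamts9, needed for vessel and heart development, had 2470 and 2567 in sham and 5125 and 4965 in PNX. Its log2 fold change of 1.00 (SE 0.030, edgeR adjusted p = 9.0e-38) lay at the fold threshold, and it was 0.98 without PNX replicate 1 and 0.98 without sham replicate 1. Adamts5, the other main aggrecanase, was higher by 0.58 (499 and 514 against 726 and 796 normalized counts, edgeR adjusted p = 4.7e-12). Adamts4 and Adamts5 both separated the groups, by unlike amounts.

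Adamts1, a versican-cleaving enzyme of endothelium and the most abundant protease among the members in sham on the FPKM scale, had 17904 and 17927 normalized counts in sham and 18924 and 18764 in PNX. The change of 0.07 (SE 0.019, edgeR adjusted p = 0.000678) passed the test but was small, and did not pass without PNX replicate 1 (0.0122). Adamts15, Adamts8 and Adamts20, of the same group, did not pass, with log2 fold changes of 0.05, -0.10 and -0.51. The Adamts8 value was 0.15 with scaling to endothelial markers. Adamts20 rests on 16.7 to 30.6 normalized counts per library.

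Among the other ADAMTS genes the largest changes were in rare RNAs. Adamts16, known from kidney and gonad, had 0 and 0 counts in sham and 81 and 64 in PNX, at least 26.1-fold higher against a floor of 3 counts per library (edgeR adjusted p = 5.3e-19). Adamts19 had 8.15 and 13.3 normalized counts in sham and 142 and 149 in PNX, a log2 fold change of 3.77 (SE 0.239, edgeR adjusted p = 1.3e-21). Both were near absence in sham and clearly counted in PNX. Adamts18, a relative of Adamts16, had 14, 7, 7 and 8 counts and was not tested.

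Adamts12 and Adamts7 form a pair that degrades the cartilage oligomeric matrix protein. Adamts12 had 117 and 140 normalized counts in sham and 582 and 633 in PNX (log2 fold change 2.25, SE 0.095, edgeR adjusted p = 3.7e-30). Adamts7 had 231 and 243 in sham and 589 and 540 in PNX (1.26, SE 0.083, edgeR adjusted p = 6.1e-21). Each of the pair separated the groups without overlap. Adamts17 and Adamts10, both tied to fibrillin microfibrils and to a short-stature lens syndrome, did not move alike. Adamts17 had 302 and 296 in sham and 704 and 692 in PNX (1.22, SE 0.073, edgeR adjusted p = 7.6e-23). Adamts10 had 13658 and 13814 in sham and 11661 and 11659 in PNX, lower by -0.24 (SE 0.021, edgeR adjusted p = 8.4e-16), a fall that came to 0.01 with scaling to endothelial markers. Adamts6 (0.20) and Adamts13 (-0.25), the protease of von Willebrand factor, did not pass. Adamts13 had 58.0 and 84.6 normalized counts in sham and 68.8 and 49.0 in PNX, and its sign turned to 0.04 without sham replicate 2.

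Of the ADAMTSL genes, Adamtsl2, whose protein binds fibrillin and latent TGF-beta complexes, was the one past both thresholds. It had 2882 and 2851 normalized counts in sham and 7062 and 7169 in PNX (log2 fold change 1.31, SE 0.027, edgeR adjusted p = 2.3e-46), and the groups were far apart. Adamtsl1 and Adamtsl3 were higher by 0.56 and 0.38 (edgeR adjusted p = 2.1e-12 and 4.9e-08). Adamtsl4, another fibrillin-binding protein, went from 2524 and 2485 to 2006 and 1994, lower by -0.32 (SE 0.036, edgeR adjusted p = 3.8e-12), which was -0.08 and did not pass (adjusted p = 0.0394) with scaling to endothelial markers. Adamtsl5 had 2487 and 2474 in sham and 2426 and 2416 in PNX and did not pass (-0.04, edgeR adjusted p = 0.373). That sign turned to 0.21 with the same scaling.

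The 4 TIMP genes lay at very different levels and moved by very different amounts. Timp1, a soluble inhibitor known to be induced by cytokines and injury, had 230 and 188 normalized counts in sham and 2132 and 2057 in PNX. It was 9.98-fold higher in PNX (log2 fold change 3.32, SE 0.063, edgeR adjusted p = 1.0e-48). Timp2, which inhibits MMPs and helps to activate the product of Mmp2, had 33204 and 33558 in sham and 35830 and 35899 in PNX, a change of 0.10 (SE 0.017, edgeR adjusted p = 4.7e-07). Both of its PNX libraries were higher, by a small amount.

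Timp3, the matrix-bound inhibitor, had 61666 and 61138 normalized counts in sham and 63232 and 64098 in PNX, a change of 0.05 (SE 0.016, edgeR adjusted p = 0.00396). That small change did not pass with DESeq2's Wald test (adjusted p = 0.0161), with counts summed over transcripts (0.0187), or without PNX replicate 2 (0.0513) or sham replicate 2 (0.0237). Timp4 had 43.5 and 54.0 in sham and 52.1 and 56.8 in PNX and did not pass (0.16, edgeR adjusted p = 0.515). Timp1, Timp3 and Timp4 lie within or across genes for synapsins. Timp3 shares 1733 exon bases with Syn3 on the opposite strand, but Syn3 had 479 counts over the 4 libraries, small beside Timp3, while Timp1 shares no exon bases with Syn1. Timp4 shares 90 exon bases with the opposite-strand Syn2, which had 1340 counts over the 4 libraries and was itself higher, by 0.53, so the few Timp4 counts are uncertain.

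On the FPKM scale, Timp3 (178 in sham, 186 in PNX) and Timp2 (125 and 135) ranked first and second of the members in both groups. Next in sham were Adamts1 (49.8) and Adamts10 (45.9), followed by Mmp15 (19.2), Mmp28 (18.9), Mmp14 (16.8) and Mmp2 (16.7). In PNX the order behind the inhibitors was Mmp2 (55.0), Adamts1 (52.7), Mmp14 (52.0), Adamts10 (39.2) and Timp1 (32.2). Timp1 moved from rank 19 to rank 7. Among the top 10 in sham, the FPKM of the libraries overlapped between the neighbours Mmp15 and Mmp28 and between Mmp14 and Mmp2, so their order is not set by these data. In PNX no neighbours among the top 10 overlapped, although Adamts1 (52.4 to 53.0) and Mmp14 (51.8 to 52.2) lay close. No test between genes was made.

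Summed over each family, MMP FPKM was 106 and 109 in sham and 217 and 219 in PNX, and ADAMTS FPKM was 120 and 121 in sham and 136 and 135 in PNX. For the ADAMTSL genes the sums were 32.6 and 32.4 in sham and 49.4 and 49.6 in PNX. TIMP FPKM summed to 307 and 307 in sham and 353 and 354 in PNX. In each family both PNX libraries were above both sham libraries. The ratio of summed TIMP to MMP FPKM was 2.89 and 2.81 in sham and 1.63 and 1.62 in PNX, whereas the ratio of TIMP to ADAMTS FPKM was 2.56 and 2.54 in sham and 2.60 and 2.62 in PNX. With 2 libraries against 2, an exact two-sided permutation test cannot give a p below 0.333, so these sums and ratios are given without one. They are ratios of RNA and not of enzyme to inhibitor.

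The make-up of the sums shifted too. Mmp2 gave 15.1% and 15.9% of MMP FPKM in sham and 25.3% and 25.3% in PNX, and Mmp14 gave 15.8% and 15.4% in sham and 23.9% and 23.8% in PNX. Mmp15 went from 17.7% and 17.9% to 8.41% and 8.54% of MMP FPKM, and Mmp28 from 17.2% and 17.8% to 5.62% and 5.53%. Mmp12 went from 1.11% and 1.11% to 8.91% and 8.54%. Timp1 went from 1.14% and 0.934% of TIMP FPKM to 9.27% and 8.90%. Shares of a sum move together, so the lower share of Mmp15, whose own level did not pass the test, goes with the higher levels of other members, while that of Mmp28 goes also with its own fall.

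**Figure D4:**
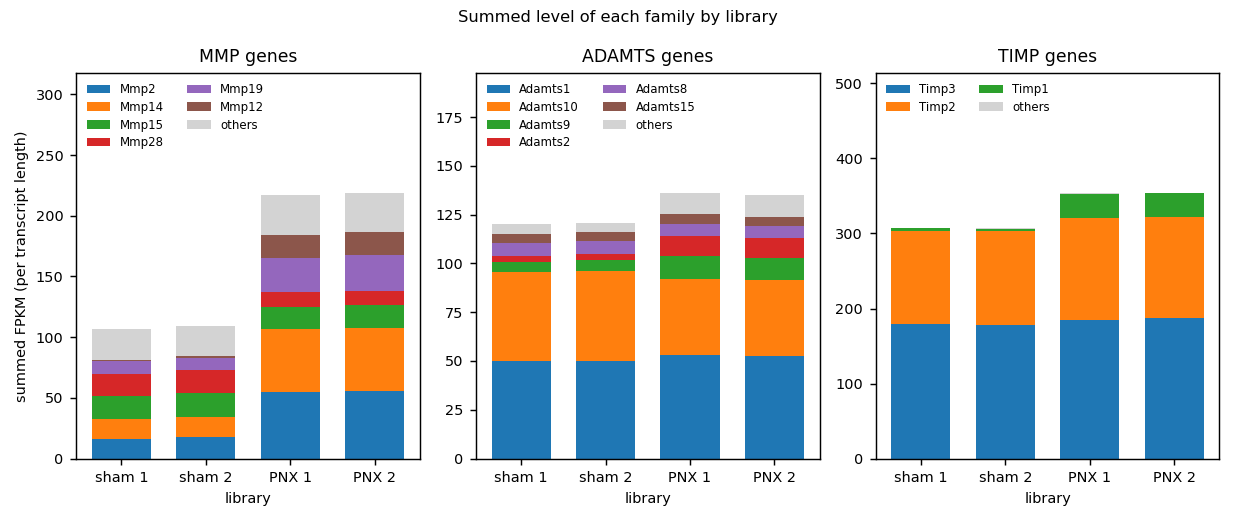
Stacked bars give the summed FPKM of the MMP, ADAMTS and TIMP genes (y axes, each from 0) in each of the 4 libraries (x axis), divided by gene. The MMP bars go from 106 and 109 in sham to 217 and 219 in PNX, with more from Mmp2, Mmp14, Mmp19 and Mmp12, and Timp1 is the visible addition to the TIMP bars.

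Genes that act with these proteases were read from lists of their own. Among all genes tested, 5.9% were higher and 1.66% lower past both thresholds. Of 22 other regulators and activators (proprotein convertases and others), 19 were tested and 1 was higher and 1 lower past both thresholds (median log2 fold change 0.18). The share higher in this list, 5.26%, was near that of all genes. The higher gene was A2m, the general protease trap alpha-2-macroglobulin (19.0 and 15.3 against 61.9 and 80.2 normalized counts, 2.02), and the lower was Klk1, a tissue kallikrein (58.0 and 66.3 against 31.4 and 26.7, -1.08). Lrp1, the receptor that clears protease and inhibitor complexes, was the most counted (0.31). Of 19 other metzincins and relatives, 15 were tested and 2 (13.3%) were higher, 0 lower, with a median of 0.35. These were Adam12 (418 and 432 against 1651 and 1600, 1.94), a protease of activated stroma, and Adam8 (1113 and 1165 against 3269 and 3328, 1.53), of leukocytes. The most counted, Adam15 and Adam10, had log2 fold changes of 0.48 and 0.21.

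Of 18 substrates and partners, 16 were tested and 8 were higher past both thresholds, 0 lower, with a median of 1.13. Among all genes tested, 5.9% were higher by that rule. The 8 were Col1a1 (2.34), Col1a2 (2.08) and Col3a1 (2.27), the fibrillar collagens whose propeptides Adamts2 removes, Eln (1.80), the elastin cut by the product of Mmp12, Vcan (2.73), the versican cut by Adamts1 and its relatives, Fbn1 (1.39) and Fbn2 (2.07), the fibrillins, and Fn1 (2.22), fibronectin. Col4a1, of basement membrane, was among the most counted and had a log2 fold change of 0.87. Vwf, the substrate of Adamts13, had one of -0.07. Which cells the RNA of proteases and substrates came from was not tested.

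Markers of cell types moved between the same libraries. The counts called in each list below are to be read beside the shares of all genes tested. At any size these were 29.3% higher and 27.8% lower, and past both thresholds 5.9% higher and 1.66% lower. The summed normalized counts of 12 endothelial markers went from between 507195 and 512552 in sham to between 434812 and 436967 in PNX, a ratio of 0.855, with 10 of 12 lower at any size, Cdh5 by -0.22 and Tek by -0.50. Activated fibroblast markers summed to between 15600 and 15817 in sham and between 35402 and 35723 in PNX (2 of 6 higher past both thresholds, Lrrc15 by 3.14 and Postn, the most counted, by 1.00 without passing the fold threshold). Mesothelial markers summed to between 11669 and 11800 in sham and between 24287 and 24706 in PNX (5 of 7 higher, Wt1 by 2.68 and Msln by 1.97). Fibroblasts and mesothelial cells are known to express Mmp2, Mmp14 and Timp1.

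Macrophage and monocyte markers summed to between 21962 and 22406 in sham and between 51065 and 51170 in PNX, with 4 of 8 higher past both thresholds (C1qb by 2.98). Alveolar macrophage markers summed to between 103114 and 103799 in sham and between 235136 and 239295 in PNX, with 2 of 7 higher past both thresholds (Marco by 2.99 and Chil3 by 1.50), but 3 of 7 lower at any size (Fabp1 by -0.95, Ear2 by -0.22 and Krt79 by -0.13) and a median of 0.14. Chil3 alone had a mean of 66368 normalized counts in sham and 187945 in PNX and so carried most of that sum. Cavity macrophage markers summed to between 2314 and 2364 in sham and between 8895 and 8907 in PNX, with 5 of 6 higher (Cd5l by 5.55). Macrophages are the cells for which Mmp12 is named. The study's methods describe a flow cytometry check of the isolated cells for lack of CD45, the leukocyte surface protein encoded by Ptprc. Ptprc had 11597 and 11535 normalized counts in sham and 11422 and 11665 in PNX, a log2 fold change of 0.00 that did not pass (edgeR adjusted p = 0.905). Markers of neutrophils, the cells of Mmp8 and Mmp9, summed to between 10723 and 10892 in sham and between 11509 and 11841 in PNX, with 0 of 10 past both thresholds and 4 of 10 higher and 4 of 10 lower at any size. Of all genes tested, 29.3% were higher and 27.8% lower at any size.

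In several other lists 1 abundant gene set the sum. Resident fibroblast markers had a summed ratio of 1.09, in which Inmt, lower by -1.04, was the most counted. Of the 10, 7 were higher and 2 lower at any size, against 29.3% and 27.8% of all genes tested. Lum was higher by 4.26, and the median of the list was 0.57. The mast cell ratio of 0.821 rested on Kit, also known in capillary ECs and lower by -0.34. Of the 7 mast cell markers, 3 were higher past both thresholds (Tpsb2 by 5.80, Cma1 by 3.34 and Mcpt4 by 2.21). At any size 4 of the 7 were higher and 2 were lower, Kit and Ms4a2 (-0.69), and Fcer1a did not pass. The median of the mast cell list was 0.75. The lymphatic ratio of 0.613 rested on Lyve1, lower by -1.14, while Prox1 (0.43) and Pdpn (0.39) were higher, Flt4 and Reln did not pass, and the median was -0.02.

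Smooth muscle and pericyte markers had a ratio of 1.30, with 6 of 8 higher at any size and Cspg4 higher by 1.03. All markers of alveolar type 2 cells (6), alveolar type 1 cells (5), airway epithelium (6), T cells (6) and B cells (5) were lower at any size, with ratios of 0.646, 0.711, 0.495, 0.567 and 0.566. Of all genes tested, 27.8% were lower and 29.3% higher by that rule. The pan-leukocyte genes had a ratio of 1.08, with 3 of 5 higher and 1 lower at any size. No list was at 0 in either group, although Ccl21a of the lymphatic list had no counts in PNX. The part that any of these cell types had in the values of the proteases and inhibitors was not tested.

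**Figure D5:**
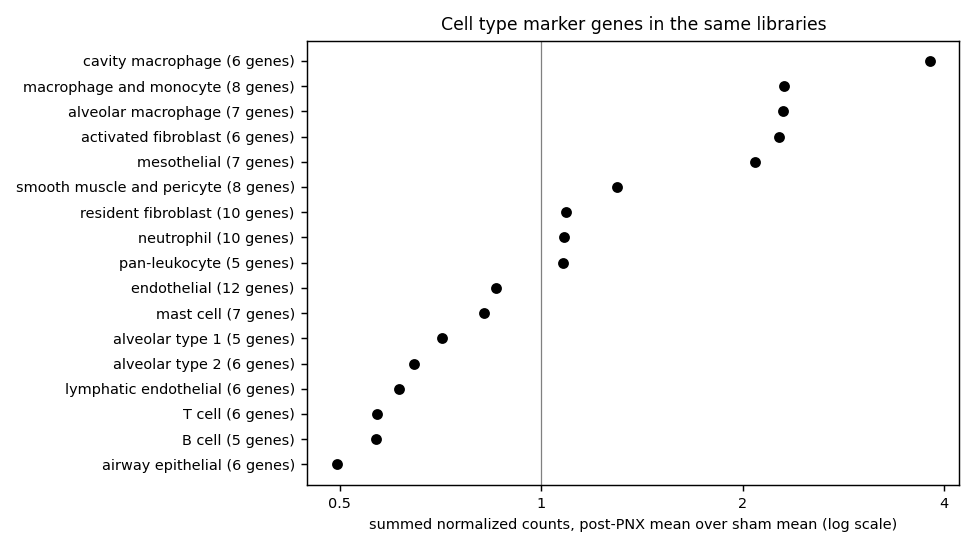
The ratio of mean summed normalized counts, PNX over sham (x, log scale), is plotted as 1 point for each cell type marker list (y). The macrophage, mesothelial and activated fibroblast lists lie between 2.09 and 3.81, the endothelial list at 0.855, and the epithelial, T cell and B cell lists between 0.495 and 0.711, and a ratio can rest on 1 abundant gene, as for Chil3 in the alveolar macrophage list and Lyve1 in the lymphatic list (0.613).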

How the data were processed

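RNA from CD31-selected lung cells was measured in 4 libraries, 2 sham and 2 PNX, grouped by the titles and treatment labels. Per the study's methods, a TruSeq Stranded mRNA kit and paired-end sequencing were used, and per the submitters' processing notes reads were aligned to mm10 with STAR. The counting program and its strand setting are not given in the sources used here. The authors deposited whole-number counts for each of 33068 RefSeq transcripts, with no normalization. The authors also deposited FPKM per transcript, scaled to length and library total, and TPM, which was not used here. No column of other samples was present.

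For each symbol the transcript with the highest summed count was kept, since a read can be counted on several transcripts of a gene. PNX was compared with sham by the quasi-likelihood F test of edgeR 4.0.16 in R 4.3.3 (filterByExpr, TMM factors from 0.998 to 1.003, no covariates), with Benjamini-Hochberg adjustment over 16208 genes. Calls needed an adjusted p under 0.01 and a log2 fold change over 1 or under -1, as in the study. Standard errors were the log2 fold change over the root of F. A group with at most 3 counts in each library was set at the floor of 3, worth 0.0590 to 0.0725 CPM. Floors cover counting error only. Promoters were taken from RefSeq.

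Every gene of the symbol rule is named. Values per library are given for those past both thresholds, for the 2 most counted of each functional group, and for the TIMP genes. From the related gene lists the called genes and the 2 most counted are named, except 1 gene that is not reported here, and from the marker lists the most counted or most changed, with Vwf and a few markers named outside this rule after their values were seen. The members, lists and tests were chosen with earlier results of these data known. The alternatives were other scalings (DESeq2 1.42.0 size factors, library size, 12 endothelial markers), no filter, a mean of at least 50 counts, DESeq2's Wald test, glmTreat, counts summed over transcripts, an adjusted p under 0.05, the replicate number as a block, and each library left out. Libraries with the same replicate number come from different mice, and their deviations from the group means had a correlation of 0.0236 over 14298 genes, so the numbers were not treated as pairs.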

Additional observations from a re-analysis of the deposited data

How the results depend on the processing

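The count of 20 genes higher past both thresholds was 20 with DESeq2's size factors, with library size alone, with scaling to 12 endothelial markers, with no filter, with counts summed over transcripts and at an adjusted p under 0.05. It was 19 with DESeq2's Wald test (without Mmp27), 17 with glmTreat (without Adamts9, Mmp27 and Mmp8) and 17 with a mean of at least 50 counts, which removed Adamts16, Mmp10 and Mmp27 from the test. With each library left out in turn it was 19 each time, without Adamts9 when PNX replicate 1 or sham replicate 1 was left out and without Mmp27 when PNX replicate 2 or sham replicate 2 was. In every one of these settings 0 genes were lower past both thresholds. With the replicate block the counts were 20 and 0, and 28 and 4 at any size, and no call changed. DESeq2's Wald test gave 26 higher and 3 lower at any size, without Mmp27, Timp3 and Mmp11. Scaling to endothelial markers gave 36 higher at any size, but it also brought the median of all genes tested to 0.24. The share of all genes higher at any size with that scaling is not given here. Leaving out 1 library gave 26 to 28 genes higher and 3 to 4 lower at any size, and medians of 0.81 to 0.88 for MMP, 0.59 to 0.77 for ADAMTS, 0.37 to 0.39 for ADAMTSL and 0.077 to 0.22 for TIMP genes. The 4 genes lower at any size became 7 at an adjusted p under 0.05, and 1, Mmp28, with scaling to endothelial markers. That scaling gave medians of 1.11 for MMP, 1.04 for ADAMTS, 0.62 for ADAMTSL and 0.37 for TIMP genes, and turned the direction of 8 genes: Adamts10 (0.0054), Adamts8 (0.15), Adamtsl5 (0.21), Mmp9 (0.11), Mmp15 (0.18), Mmp24 (0.18), Mmp11 (0.044) and Mmp3 (0.23). Adamts13, at -0.25, ranged from -0.52 to 0.037 with 1 library left out, and was above 0 without sham replicate 2. The ADAMTS median was 0.58 with DESeq2's Wald test and 0.58 with no filter, where Adamts18 entered the list, and the MMP median was 0.42 with a mean of at least 50 counts, where fewer genes were tested. Of 626 gene values over all settings, 609 kept their direction and side of the thresholds. Depth limits Mmp1b, Mmp21 and Adamts18, which were too scarce to test.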

Other observations

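Adamts2 is counted on 2 transcripts in the deposited tables. Counts on the shorter one were 70.98% and 71.27% of those on the longer one in sham and 59.53% and 59.15% in PNX. Both PNX libraries were thus below both sham libraries, and the difference was not tested. A read can be counted on both transcripts, so these percentages are not shares of isoforms.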
